A study of Mus musculus with 24 samples.

Results

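Transcripts of 9 chemokine and chemoattractant receptors were followed in SIM-A9, an established line of mouse microglia. The cells had 2 h of exposure to bacterial lipopolysaccharide or to probes used on neurons, beside a control. The genes were taken by symbol: Cxcr4, Ccr1, Ccr2, Ccrl2, C5ar1, C3ar1, Fpr1, Fpr2 and Cx3cr1. All 9 were present among the 54838 gene identifiers of the count table, and 6 of them passed the low-count filter that left 13116 genes for testing. There were 8 groups of 3 libraries. The control was untreated. The other groups received LPS (bacterial lipopolysaccharide), single-walled carbon nanotubes (SWCNT) labelled (GT)6, carboxylated nanotubes (COOH SWCNT), Fura-2, which reports calcium, the compounds labelled DiBASC2 and Di-2-ANEPEQ, or AAV (adeno-associated virus). Cells of every group, control included, stood in serum-free medium for 2 h before 30 uL of sample was added to 270 uL of medium. RNA was taken 2 h after that. All groups come from a single cell line in culture, and the doses are not in the labels, so differences between treatments are differences between these preparations as added. Nothing in the labels says that the libraries of a group came from separate cultures, so p-values measure the spread between these libraries, which may be technical.

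These receptors span the cell membrane, mostly signal through G proteins and steer the movement of leukocytes. C5ar1 and C3ar1 bind the complement fragments C5a and C3a. Cxcr4, Ccr1, Ccr2 and Cx3cr1 bind chemokines, Fpr1 and Fpr2 bind formylated bacterial peptides and related ligands, and Ccrl2 is an atypical receptor that presents the chemoattractant chemerin without signalling in the usual way. In the brain, Cx3cr1 is a standing marker of microglia, whereas Ccr2 is known for monocytes that enter from blood.

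Library totals lay between 17364272 and 29259221 counts. Tnf rose from 35.6 ± 1.26 CPM in control to 1144 ± 53.8 CPM in LPS (SD, n = 3) and Nfkbia from 113 ± 2.71 to 731 ± 42.5 CPM, both with LPS libraries apart from control. CPM here are counts relative to library size, scaled with TMM factors. Of 13 microglia and macrophage markers, 12 had a mean of at least 1 CPM, and Sall1 had at most 3 counts in any library; their sum was 2660 to 2960 CPM across the 24 libraries. Marker sums of neutrophils lay between 0 and 0.303 CPM, and those of T cells between 0.0361 and 0.430 CPM. Oligodendrocyte markers summed to 3.51 to 5.80 CPM, with Mbp at 3.04 to 5.43 CPM, beside 1.54 to 3.26 CPM for the microglia marker P2ry12 and 2.75 to 5.32 CPM for Tmem119. The library indices run in blocks of 3 by group, so library order and group cannot be told apart. In these bulk libraries, fewer cells of a kind and less RNA per cell cannot be told apart either.

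C5ar1 had the highest level of the 9 receptors per length in all 8 groups. In control, per kb of exon, its level was 23.5 ± 0.107 CPM (SD, n = 3), followed by C3ar1 at 13.3 ± 0.628 CPM. Cxcr4 at 2.86 ± 0.346 and Cx3cr1 at 2.75 ± 0.349 CPM per kb did not differ beyond their spread, and Ccrl2 at 1.68 ± 0.225 and Ccr1 at 0.544 ± 0.185 CPM per kb came next. Ccr2 was at 0.0152 ± 0.0199 CPM per kb, while Fpr1 and Fpr2 had no counts in control. The order changed with LPS, where Ccrl2 held the third place at 20.4 ± 1.90 CPM per kb and Cxcr4 the fifth at 0.900 ± 0.125 CPM per kb.

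Summed over the 9 receptors, the level per kb was 44.7 ± 0.445 CPM in control, 104.5 ± 3.01 CPM in LPS, 82.3 ± 4.56 CPM in (GT)6 SWCNT and 68.0 ± 1.51 CPM in COOH SWCNT. It was 37.5 ± 0.730 CPM in DiBASC2, the lowest of the groups. Ccrl2 made up 3.76 ± 0.509% of the sum in control and 19.5 ± 1.34% in LPS. Cxcr4 made up 6.396 ± 0.715% in control and 0.860 ± 0.106% in LPS. The share of C5ar1 was 52.7 ± 0.519% in control and 62.9 ± 0.909% in (GT)6 SWCNT.

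**Figure D1:**
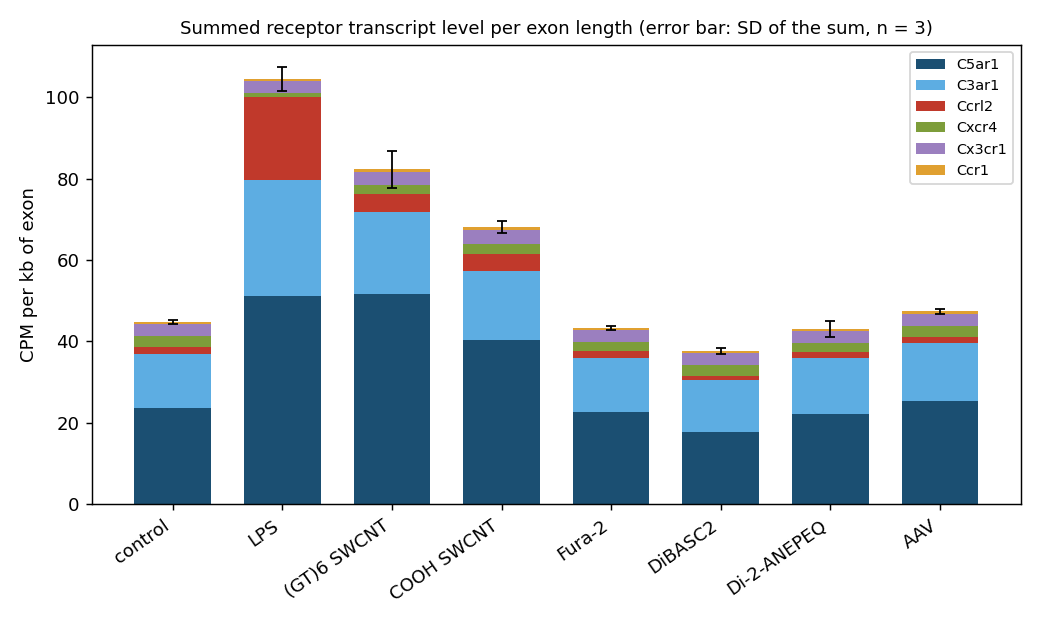
Stacked bars give the mean level per kb of exon (CPM per kb) of the 6 tested receptors in each treatment group, and the black error bar is the SD of the sum over all 9 receptors (n = 3). The bar is tallest in LPS, at 104.5 CPM per kb, with a visible Ccrl2 segment that is thin in control.

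C5ar1, the receptor for C5a, rose in LPS and in both nanotube groups and fell in DiBASC2. It lies on chromosome 7 (16246743 to 16259540, minus strand, GRCm38, ENSMUSG00000049130.6), and the 250 bases before its RefSeq start are shown because this gene changed in 4 of the 7 treatments. Capitals mark the letters AGGAAGT, the core of a PU.1 (macrophage transcription factor) motif, which occur here on the opposite strand, 190 to 184 and 72 to 66 bases before the start. The RefSeq start lies 202 bases inside the gene from the start given by GENCODE, so most of this window lies within the GENCODE gene.
C5ar1 chr7:16259339-16259588, minus strand, GRCm38.p6: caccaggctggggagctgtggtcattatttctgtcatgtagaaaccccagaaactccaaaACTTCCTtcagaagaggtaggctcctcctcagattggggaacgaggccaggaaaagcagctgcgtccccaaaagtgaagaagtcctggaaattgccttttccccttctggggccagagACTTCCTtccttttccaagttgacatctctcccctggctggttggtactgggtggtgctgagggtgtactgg
In control its libraries read 60.7, 60.6 and 60.2 CPM. The LPS libraries read 131, 129 and 134 CPM, a fold change of 2.17 (95% interval 2.04 to 2.32, log2 1.12 ± 0.05 SE, adjusted p 1.22e-21 in edgeR's quasi-likelihood test). With (GT)6 SWCNT the libraries read 137, 135 and 127 CPM, 2.20-fold above control (log2 1.14 ± 0.05, adjusted p 3.24e-21). All 6 of these libraries lay far above control. COOH SWCNT gave 101, 106 and 104 CPM, between the control and LPS libraries and apart from both (1.71-fold, log2 0.77 ± 0.05, adjusted p 1.63e-15). DiBASC2 gave 45.8, 46.4 and 43.9 CPM, below every control library (1.33-fold lower, log2 −0.41 ± 0.05, adjusted p 2.24e-07).

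The remaining 3 treatments did not pass the test for C5ar1. Fura-2 libraries read 58.1, 59.6 and 57.7 CPM and lay just under all control libraries, with log2 −0.05 ± 0.05 (adjusted p 0.767). In Di-2-ANEPEQ the libraries read 62.2, 55.9 and 52.9 CPM and spanned the control values (log2 −0.08 ± 0.05, adjusted p 0.396). AAV libraries read 64.2, 67.1 and 64.2 CPM and lay above all control libraries, with log2 0.11 ± 0.05 (unadjusted p 0.027, adjusted p 0.171).

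C3ar1, the receptor for C3a, rose with LPS and with both nanotubes, to different extents. It lies on chromosome 6 (122847138 to 122856161, minus strand, ENSMUSG00000040552.8). The 250 bases before its start are shown with TGACTCA, a match to the AP-1 motif TGANTCA, in capitals 22 to 16 bases before the start, and with TATAAA in capitals 235 to 230 bases before it.
C3ar1 chr6:122856158-122856407, minus strand, GRCm38.p6: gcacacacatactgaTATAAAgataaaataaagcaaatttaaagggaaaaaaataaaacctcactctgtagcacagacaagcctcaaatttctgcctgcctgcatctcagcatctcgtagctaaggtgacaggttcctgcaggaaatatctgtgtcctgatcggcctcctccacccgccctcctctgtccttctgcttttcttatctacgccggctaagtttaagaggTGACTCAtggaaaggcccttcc
Control libraries read 58.4, 59.4 and 54.3 CPM. With LPS they read 125, 119.9 and 124 CPM (2.14-fold, 95% interval 1.999 to 2.29, log2 1.10 ± 0.05, adjusted p 1.23e-20). In (GT)6 SWCNT they read 90.5, 91.1 and 78.2 CPM (1.51-fold, log2 0.60 ± 0.05, adjusted p 3.26e-12), with replicate 3 the lowest. In COOH SWCNT they read 72.6, 72.2 and 73.4 CPM (1.27-fold, log2 0.34 ± 0.05, adjusted p 2.41e-06). Each of these 3 groups lay wholly above control, and the 3 groups did not overlap one another. DiBASC2 libraries, at 53.6, 56.6 and 54.4 CPM, overlapped control (log2 −0.07 ± 0.05, adjusted p 0.527), as did Fura-2 at 58.1, 55.3 and 56.7 CPM and Di-2-ANEPEQ at 56.8, 62.5 and 58.4 CPM. AAV libraries read 61.9, 61.5 and 60.3 CPM, above all control libraries, with log2 0.09 ± 0.05 (adjusted p 0.284).

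C5ar1 and C3ar1 had nearly equal counts in control. The number of C5ar1 counts per C3ar1 count, which needs no scaling between libraries, was 1.056 ± 0.0466 in control (SD, n = 3) and 1.070 ± 0.0143 in LPS. (GT)6 SWCNT stood at 1.539 ± 0.0693, COOH SWCNT at 1.423 ± 0.0390 and DiBASC2 at 0.827 ± 0.0248. The libraries of these 3 groups did not overlap control. Fura-2 stood at 1.032 ± 0.0416, Di-2-ANEPEQ at 0.964 ± 0.113 and AAV at 1.064 ± 0.0270. In an exact two-sided permutation test against control, the 3 groups that stood apart gave p = 0.1, the smallest that 3 libraries against 3 allow, and 0.233 after adjustment over 7 comparisons, so no difference in the ratio could pass. This ratio was chosen after its values were seen.

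**Figure D2:**
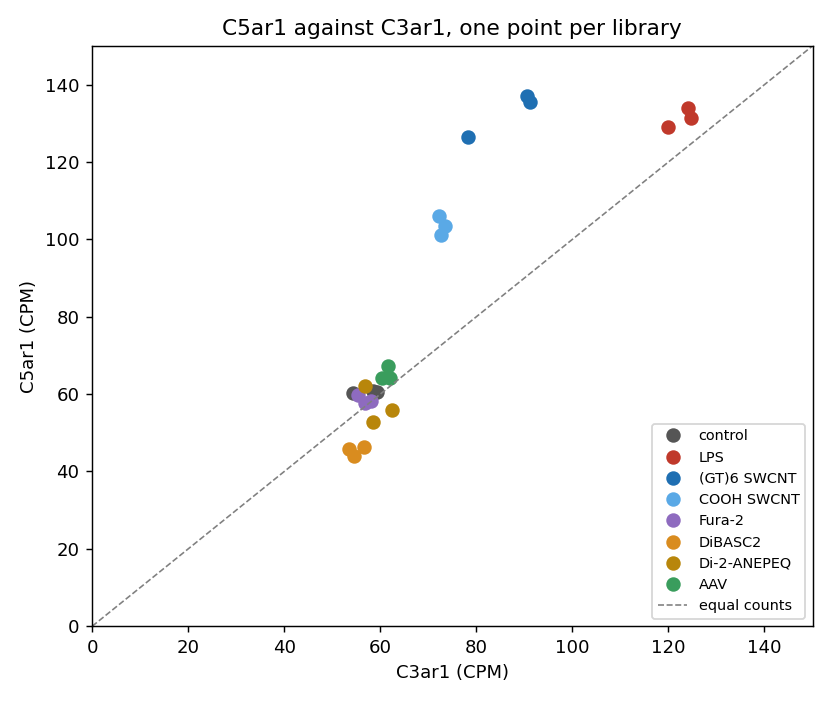
Each point is a library, with C3ar1 (CPM) on the horizontal and C5ar1 (CPM) on the vertical axis, coloured by group, and the dashed line marks equal counts. LPS points lie near the line at high levels of both genes, nanotube points lie above it and DiBASC2 points lie below it.

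Ccrl2 showed the largest rise with LPS among the 6 tested receptors. It lies on chromosome 9 (111054486 to 111057519, minus strand, ENSMUSG00000043953.12). The 250 bases before its start hold GGACTTTCC, a match to the kappa-B motif GGANTTTCC bound by NF-kB factors, in capitals 68 to 60 bases before the start. The RefSeq table holds 3 windows for this gene, and the one nearest the GENCODE start is shown.
Ccrl2 chr9:111057519-111057768, minus strand, GRCm38.p6: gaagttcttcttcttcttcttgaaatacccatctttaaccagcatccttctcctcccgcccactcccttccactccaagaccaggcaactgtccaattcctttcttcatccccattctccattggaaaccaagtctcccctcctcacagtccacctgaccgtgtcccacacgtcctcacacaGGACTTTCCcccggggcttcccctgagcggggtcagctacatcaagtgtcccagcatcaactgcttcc
Control libraries read 3.90, 4.17 and 5.02 CPM. With LPS they read 48.5, 52.0 and 58.3 CPM, 12.2-fold above control (95% interval 10.5 to 14.0, log2 3.60 ± 0.10, adjusted p 1.01e-26), which was the 50th highest log2 fold change among the 13116 tested genes. (GT)6 SWCNT libraries read 11.9, 11.5 and 10.8 CPM (2.62-fold, log2 1.39 ± 0.12, adjusted p 8.59e-12). COOH SWCNT libraries read 10.3, 12.02 and 11.2 CPM (2.55-fold, log2 1.35 ± 0.12, adjusted p 4.29e-11). The libraries of the nanotube groups overlapped one another and lay between control and LPS. DiBASC2 gave 3.07, 2.11 and 2.74 CPM, below all control libraries (1.66-fold lower, log2 −0.73 ± 0.15, adjusted p 0.0018). Fura-2 at 4.07, 4.87 and 4.46 CPM, Di-2-ANEPEQ at 3.93, 3.69 and 3.07 CPM, and AAV at 4.23, 3.84 and 3.73 CPM overlapped control, with adjusted p of 0.963, 0.320 and 0.586.

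Cxcr4, the receptor for Cxcl12, fell with LPS. It lies on chromosome 1 (128588199 to 128592293, minus strand, ENSMUSG00000045382.6). Its upstream window has TATAAA on both strands in 1 overlapping run, in capitals 32 to 25 bases before the start.
Cxcr4 chr1:128592300-128592549, minus strand, GRCm38.p6: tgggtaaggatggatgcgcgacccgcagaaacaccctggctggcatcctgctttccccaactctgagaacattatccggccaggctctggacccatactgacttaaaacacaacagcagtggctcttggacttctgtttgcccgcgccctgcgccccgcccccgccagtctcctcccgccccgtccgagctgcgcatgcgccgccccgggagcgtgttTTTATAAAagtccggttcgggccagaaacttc
Control libraries read 5.66, 4.47 and 5.39 CPM and LPS libraries 1.74, 1.37 and 1.78 CPM, a 3.15-fold lower level (log2 −1.66 ± 0.17, adjusted p 4.51e-10), the 54th lowest of the 13116 changes. In (GT)6 SWCNT it read 3.94, 4.34 and 3.34 CPM, below all control libraries, with log2 −0.39 ± 0.14 and an adjusted p of 0.048. That call was lost with the DESeq2 test (adjusted p 0.0767) and in the other settings given in the closing section, and the adjusted p reached 0.213 without control replicate 1. COOH SWCNT read 3.68, 5.01 and 5.03 CPM and overlapped control (log2 −0.18 ± 0.14, adjusted p 0.411). Fura-2 read 3.71, 4.12 and 4.003 CPM, also below all control libraries, with log2 −0.38 ± 0.14 and an unadjusted p of 0.0102, but an adjusted p of 0.282. Di-2-ANEPEQ read 4.102, 4.49 and 4.05 CPM, which touched the control range (log2 −0.29 ± 0.14, adjusted p 0.288). DiBASC2 read 4.76, 5.53 and 5.09 CPM (log2 −0.00 ± 0.13, 95% interval −0.27 to 0.27) and AAV read 5.27, 4.42 and 4.61 CPM (log2 −0.11 ± 0.13, 95% interval −0.38 to 0.16), both overlapping control.

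The kappa-B letters occurred in 1.07% of the 32817 RefSeq promoter windows of the same 250 bases, and Ccrl2 was the only 1 of the 9 receptors with a match. AP-1 letters were in 6.75% of windows and in C3ar1 alone among the receptors. AGGAAGT was in 7.69% of windows and in C5ar1 alone, and TATAAA in 12.4% of windows and in 4 of the receptors (Cxcr4, C3ar1, Fpr1 and Fpr2). Both strands were searched, and the motifs were chosen after the Ccrl2 window had been read. The RefSeq start lay 1583 bases from the GENCODE start for Cx3cr1, 233 for Ccr2 and 202 for C5ar1. The windows of these 3 lie mostly or wholly within the GENCODE gene, so a lack of matches there does not describe the bases before the GENCODE start. A match describes letters in a window and shows no binding.

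Cx3cr1, the fractalkine receptor, had group means between 12.4 and 14.9 CPM in all 8 groups. Its control libraries read 11.98, 11.02 and 14.1 CPM. LPS libraries read 14.4, 13.5 and 13.9 CPM (log2 0.18 ± 0.10, adjusted p 0.192) and (GT)6 SWCNT libraries 14.4, 15.1 and 12.7 CPM (log2 0.20 ± 0.10, adjusted p 0.149), both overlapping control. COOH SWCNT libraries read 15.4, 13.9 and 15.3 CPM, 1.21-fold above control (log2 0.28 ± 0.09, adjusted p 0.035), and 1 of them lay within the control range. The call was lost without control replicate 2, at an adjusted p of 0.226, and without 3 other libraries in turn. Fura-2 libraries read 15.2, 13.3 and 11.8 CPM, DiBASC2 libraries 12.5, 12.7 and 12.8 CPM, Di-2-ANEPEQ libraries 13.02, 13.1 and 12.1 CPM and AAV libraries 15.2, 12.5 and 13.7 CPM. All 4 of these groups overlapped control, and the adjusted p was 0.694 in Fura-2, 0.875 in DiBASC2, 0.844 in Di-2-ANEPEQ and 0.328 in AAV. In DiBASC2 the 95% interval of the log2 change ran from −0.15 to 0.23. The gene (chromosome 9, 119901616 to 120069879, minus strand, ENSMUSG00000052336.7) shares 78 exon bases with the antisense gene Gm33858, so its counts are uncertain if strand was not used in counting.

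Ccr1, a receptor for Ccl3 and Ccl5, was low, with 16 to 55 counts in every library, and its libraries scattered. Control read 1.87, 0.936 and 1.82 CPM. LPS read 0.869, 1.03 and 1.17 CPM, with control replicate 2 inside that range (log2 −0.55 ± 0.30, adjusted p 0.179; without control replicate 2, log2 −0.83 and adjusted p 0.0411). (GT)6 SWCNT read 2.14, 2.19 and 2.28 CPM, above all control libraries, but the change did not pass (log2 0.55 ± 0.26, adjusted p 0.138). COOH SWCNT read 2.09, 2.15 and 1.70 CPM (log2 0.39 ± 0.26, adjusted p 0.313). Fura-2 read 1.49, 0.804 and 1.23 CPM, DiBASC2 1.16, 1.23 and 1.54 CPM, Di-2-ANEPEQ 1.86, 0.962 and 1.83 CPM, and AAV 1.30, 1.75 and 1.91 CPM, all overlapping control. The 95% interval of the log2 change in DiBASC2, −0.75 to 0.34, is wide at these counts. The nanotube libraries did differ from LPS: Ccr1 was 2.13-fold higher in (GT)6 SWCNT (log2 1.09 ± 0.27, adjusted p 0.00267) and 1.92-fold higher in COOH SWCNT (log2 0.94 ± 0.27, adjusted p 0.00619), with no overlap in either case. It lies on chromosome 9 (123962124 to 123968692, minus strand, ENSMUSG00000025804.5).

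Ccr2, Fpr1 and Fpr2 were at or near the limit of detection. Ccr2 (chromosome 9, 124101950 to 124113557, ENSMUSG00000049103.14), whose start lies 133.3 kb from that of Ccr1, had 49 counts over the 24 libraries and at most 6 in any library, with 4 libraries at 0. Its highest level was 0.255 CPM, in control replicate 2. Fpr1 (chromosome 17, 17876471 to 17883940, ENSMUSG00000045551.7) had 4 counts in all, 3 of them in LPS and 1 in COOH SWCNT, and 21 libraries had none. Fpr2 (chromosome 17, 17887824 to 17893952, ENSMUSG00000052270.7) had 4 counts, no more than 1 per library. A count of 0 allows up to 3 counts, which is 0.102 to 0.176 CPM depending on the library, and covers counting error only. Neither Fpr gene exceeded that limit in any group, so no difference between groups could be seen at this depth. Fpr2 also shares 48 exon bases with Fpr3.

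**Figure D3:**
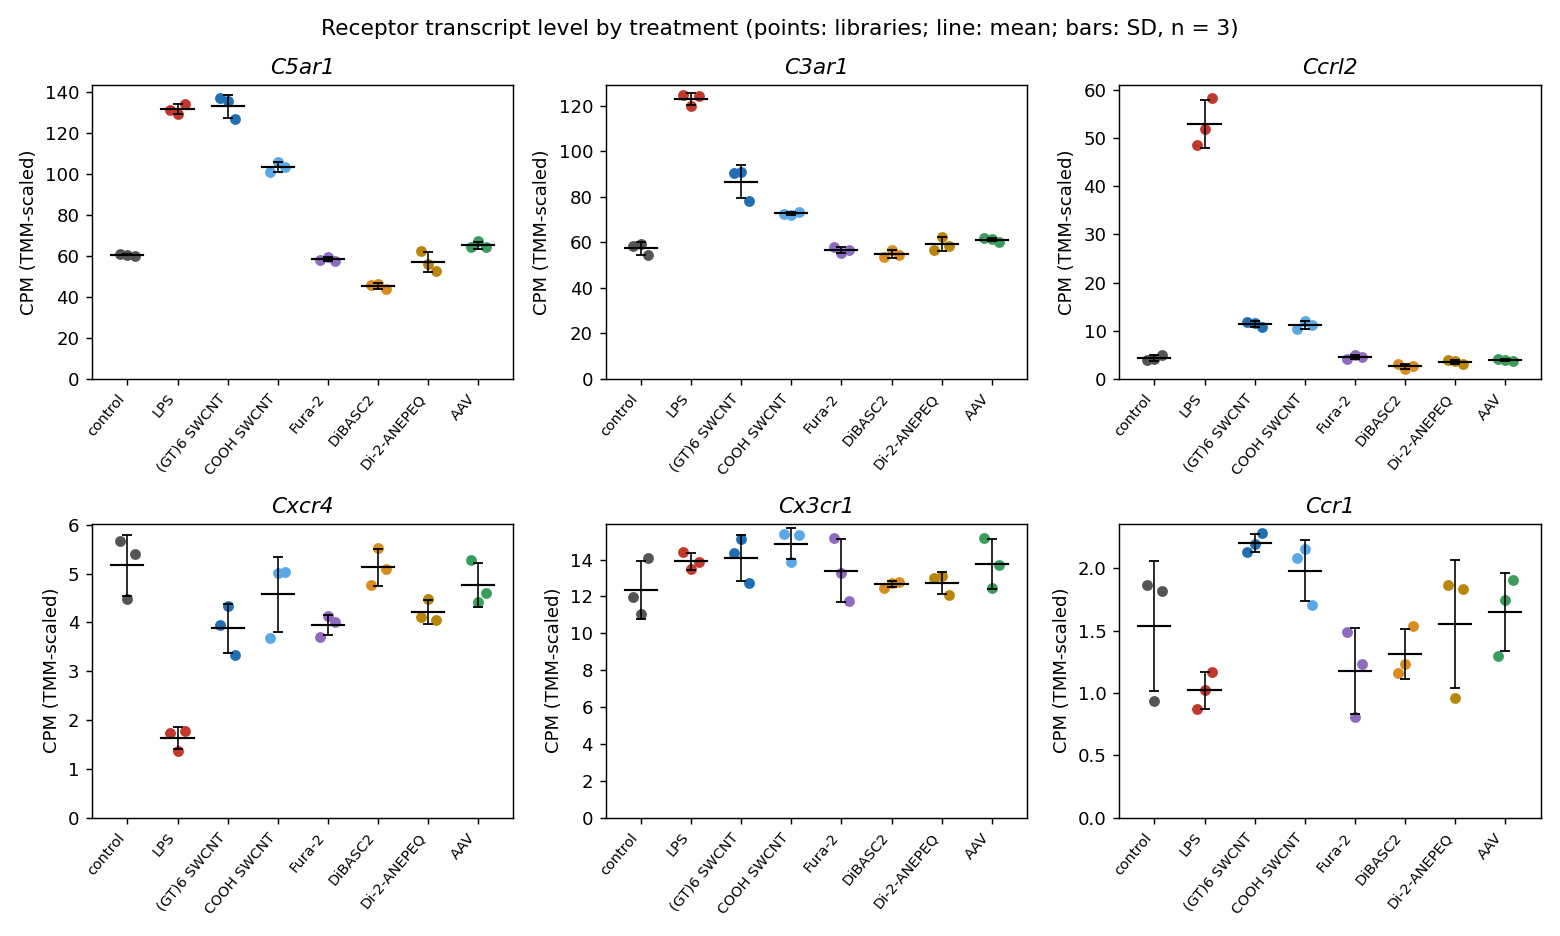
Each panel is 1 of the 6 tested receptors, with TMM-scaled CPM on the vertical axis and the 8 groups along the horizontal; points are libraries, lines are means and bars are SD (n = 3). Ccrl2 stands at 48.5 to 58.3 CPM in LPS against 3.90 to 5.02 CPM in control, and Cxcr4 at 1.37 to 1.78 against 4.47 to 5.66 CPM.

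Across comparisons, LPS called 4 of the 6 tested receptors, where 28.3% of all tested genes were called, 3 higher against 13.8% of all genes and 1 lower against 14.5%. (GT)6 SWCNT also called 4, against 20.4%, 3 higher against 9.9% and 1 lower against 10.5%. COOH SWCNT called 4, where 2627 of 13116 genes or 20% were called, and all 4 were higher, against 9.39% of genes. DiBASC2 called 2, against 5.47%, both lower, against 3.64%. The libraries did not overlap control for 4 receptors in LPS, where this held for 38.3% of all genes. It held for 5 receptors with (GT)6 SWCNT (34.3% of genes), 3 with COOH SWCNT (34.4%) and 2 with DiBASC2 (22.6%). With LPS the median log2 fold change of the 6 receptors was 0.64 against −0.01 over all tested genes. With (GT)6 SWCNT and COOH SWCNT the receptor medians were 0.57 and 0.37. Each of the 6 had at least 16 counts in every library, so none entered the test through 1 group alone.

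Fura-2, Di-2-ANEPEQ and AAV called none of the 6 receptors with edgeR, where 0.252%, 3.08% and 5% of all genes were called. The DESeq2 test called none either, but gave an adjusted p to only 10573, 9301 and 8793 of the 13116 genes. Its result may therefore not cover all 6 receptors. At an unadjusted p under 0.05 in edgeR there was 1 receptor in each of these treatments: Cxcr4 in Fura-2 and in Di-2-ANEPEQ, and C5ar1 in AAV. Over all 13116 tested genes there were 1411, 2161 and 2720. Libraries stood apart from control for 2 receptors in Fura-2, 0 in Di-2-ANEPEQ and 2 in AAV, and for 16.2%, 24.3% and 24.6% of all genes. The Cxcr4 change in Di-2-ANEPEQ had an unadjusted p of 0.0448. Their 95% intervals for C3ar1 ran from log2 −0.12 to 0.09 in Fura-2, −0.06 to 0.15 in Di-2-ANEPEQ and −0.01 to 0.19 in AAV.

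**Figure D4:**
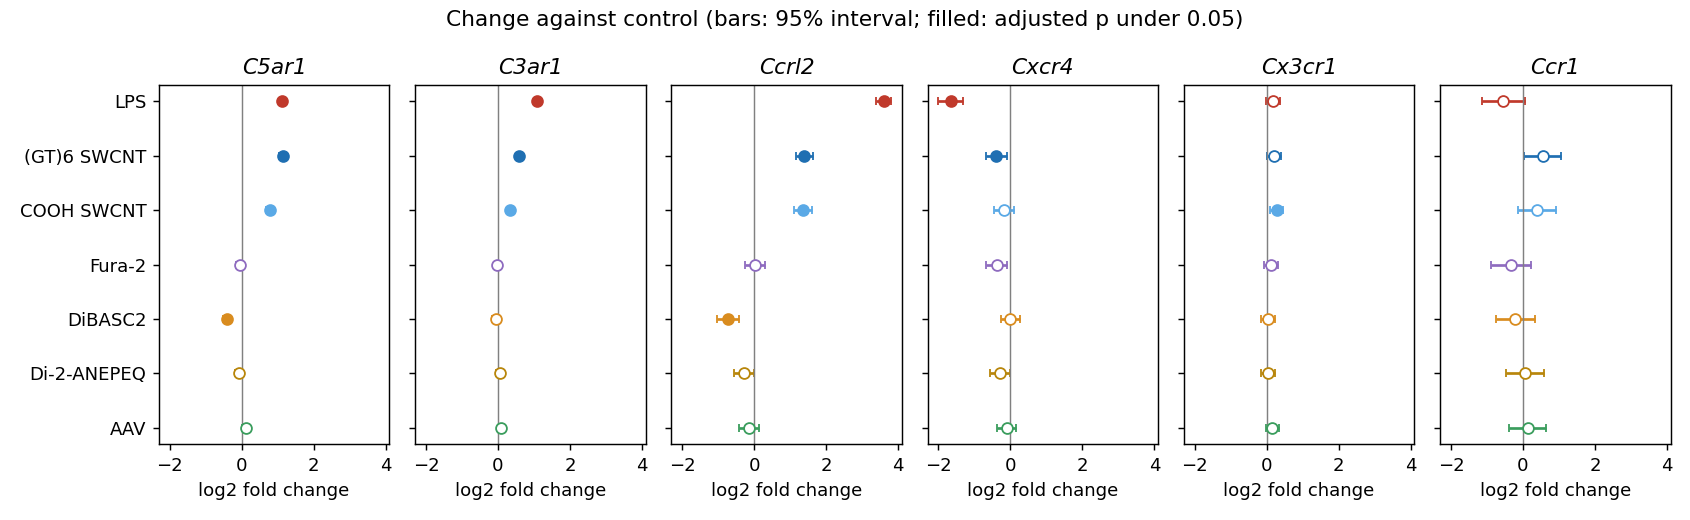
Each panel is 1 of the 6 tested receptors, with the log2 fold change against control on the horizontal axis for the 7 treatments; bars are 95% intervals and filled points have an adjusted p under 0.05. Ccrl2 in LPS lies at 3.60 and Cxcr4 in LPS at −1.66, while the points of Fura-2, Di-2-ANEPEQ and AAV are open in every panel.

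The nanotube groups were compared with LPS and with each other. (GT)6 SWCNT against LPS called 4 receptors, where 21.6% of all genes were called, 2 higher against 9.63% and 2 lower against 11.9%, and the libraries of these 4 stood apart, as did those of 33.1% of genes. Ccrl2 was 4.63-fold lower than in LPS (log2 −2.21 ± 0.09, adjusted p 5e-22) and C3ar1 1.41-fold lower (log2 −0.50 ± 0.05, adjusted p 4.6e-11), while Cxcr4 was 2.40-fold higher (log2 1.26 ± 0.18, adjusted p 5.72e-07). C5ar1 did not pass, with log2 0.02 ± 0.04 and a 95% interval of −0.07 to 0.11. COOH SWCNT against LPS called 5, where 37.8% of all genes were called, 2 higher against 18.1% and 3 lower against 19.7%, and the libraries of all 5 stood apart, as did those of 44.1% of genes. Ccrl2 (log2 −2.25 ± 0.09, adjusted p 2e-22), C3ar1 (−0.76 ± 0.05, 5.34e-16) and C5ar1 (−0.35 ± 0.04, 3.73e-08) were lower, and Cxcr4 (1.48 ± 0.17, 6.66e-09) and Ccr1 were higher.

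(GT)6 SWCNT against COOH SWCNT called 2 receptors, where 21.4% of all genes were called, both higher against 11.9%, and both with libraries apart, against 35.5%. C5ar1 was 1.29-fold higher with (GT)6 SWCNT (log2 0.36 ± 0.04, adjusted p 8.42e-08) and C3ar1 1.19-fold higher (log2 0.26 ± 0.05, adjusted p 0.000134). Ccrl2 did not pass, with log2 0.04 ± 0.10 and a 95% interval of −0.16 to 0.24. DiBASC2 against Di-2-ANEPEQ called C5ar1 alone, 1.26-fold lower (log2 −0.33 ± 0.05, adjusted p 1.03e-05), where 8.95% of all genes were called and 5.48% called lower. Libraries stood apart for 3 receptors there, against 28% of all genes (3679 of 13116). Ccrl2 had log2 −0.45 ± 0.15 in that comparison, with an adjusted p of 0.0514 that fell to 0.0353 in the DESeq2 test. Only the direct comparisons test these differences, and the comparisons against control share the same 3 control libraries.

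Of 19 ligands on the list, 13 were tested, and Ccl8, Ccl11 and Cxcl12 (the ligand of Cxcr4) had no counts. The transcripts of the C5 precursor Hc and of chemerin, Rarres2, had at most 2 and 1 counts in a library. LPS called 10 ligands higher and 1 lower, where 13.8% of all genes were called higher and 14.5% lower, and the list median log2 fold change was 1.37 against −0.01 over all genes. (GT)6 SWCNT called 8 higher and 1 lower, where 9.9% and 10.5% of all genes were, with a median of 0.53 against −0.02. COOH SWCNT called 5 higher, against 9.39% of all genes, and 1 lower, where 1395 of 13116 genes were called lower. The list median was 0.14 against −0.00. Ccl4, an inflammatory chemokine, went from 53.0 ± 6.403 CPM in control to 589 ± 71.7 CPM in LPS (log2 3.47 ± 0.09, adjusted p 5.69e-28), to 269 ± 16.8 CPM in (GT)6 SWCNT and to 143 ± 8.34 CPM in COOH SWCNT. Saa3, an acute-phase protein, went from 24.2 ± 1.95 to 198 ± 27.5 CPM with LPS. Ccl7, a ligand of Ccr2, went from 5.36 ± 0.638 CPM to 27.2 ± 1.88 CPM with (GT)6 SWCNT (log2 2.35 ± 0.11) and 12.03 ± 1.37 CPM with COOH SWCNT (1.16 ± 0.12). With LPS it was also called higher, at 22.6 ± 2.19 CPM (log2 2.08 ± 0.11, adjusted p 9e-18).

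DiBASC2 called 5 of the 13 ligands, all lower, where 3.64% of all genes were called lower: Ccl4, Ccl2, Ccl3, Ccl7 and C3. Ccl4 fell to 27.9 ± 0.331 CPM (log2 −0.93 ± 0.10, adjusted p 4.95e-08) and Ccl2 from 204 ± 13.6 to 124 ± 9.95 CPM (log2 −0.72 ± 0.07, adjusted p 2.87e-09). Di-2-ANEPEQ, where 314 of 13116 genes were called lower, called 2 ligands lower, Ccl2 (log2 −0.33 ± 0.07, adjusted p 0.00324) and Ccl9 (−0.29 ± 0.08, adjusted p 0.0229). AAV, where 241 of 13116 genes were called higher, called Ccl3 higher (log2 0.23 ± 0.07, adjusted p 0.0379). Fura-2, where 0.252% of all genes were called, called none with edgeR. At an unadjusted p under 0.05 there were 3 ligands, beside 1411 of all 13116 tested genes. DESeq2 called none, with an adjusted p for only 10573 genes. C3, the source of the C3ar1 ligand, was at 186 ± 6.17 CPM in control and rose to 275 ± 8.17 CPM in LPS. It was also called higher, by less, in (GT)6 SWCNT (log2 0.13 ± 0.04, adjusted p 0.0149) and COOH SWCNT (0.18 ± 0.04, adjusted p 0.00146).

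Of 31 other chemoattractant receptors, 8 were tested, 19 had no more than 3 counts in any library and 11 had none at all. LPS called 4, 2 higher and 2 lower, where 28.3% of all genes were called, and 1 of the 2 higher was Ccr7. Ptafr, the receptor for platelet-activating factor, rose from 8.67 ± 1.02 to 26.6 ± 3.34 CPM (log2 1.61 ± 0.10, adjusted p 1.13e-15), and Ccr7 entered the test through the LPS libraries alone, so it had to differ. C5ar2, the second C5a receptor, fell from 3.98 ± 0.604 to 2.72 ± 0.229 CPM (log2 −0.54 ± 0.16, adjusted p 0.00835), the opposite direction to C5ar1. Cxcr3 was the lone call among the 8 with (GT)6 SWCNT, where 20.4% of all genes were called, and went from 8.11 ± 0.6998 to 10.4 ± 0.691 CPM (log2 0.35 ± 0.10, adjusted p 0.0119). With LPS it was called lower, at 5.88 ± 0.179 CPM (log2 −0.46 ± 0.11, adjusted p 0.0017). The other 5 treatments called none with edgeR or with DESeq2, which left part of all genes without an adjusted p in each. At an unadjusted p under 0.05 there were 2 in COOH SWCNT, 1 in DiBASC2, 1 in Di-2-ANEPEQ and 0 in Fura-2 and AAV. Over all 13116 tested genes there were 4100, 2451, 2161, 1411 and 2720, in the same order.

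Of 30 genes of the signalling list, which holds G-protein subunits, arrestins, kinases, RGS proteins that switch off G proteins, and effectors, 29 were tested. LPS called 9 of the 29, 4 higher and 5 lower, near the 28.3% of all genes called there. (GT)6 SWCNT called 5 higher and 5 lower, where 20.4% of all genes were called, and COOH SWCNT 5 higher and 2 lower, where 20% were. The list's median log2 fold change was −0.01 with LPS against −0.01 over all genes, 0.05 against −0.02 with (GT)6 SWCNT, and 0.04 against −0.00 with COOH SWCNT. In LPS, Rgs2 fell from 47.2 ± 2.95 to 14.2 ± 1.97 CPM (log2 −1.74 ± 0.07, adjusted p 1.75e-21) and Pik3r5, a subunit of the G-protein-driven PI3-kinase gamma, rose from 183 ± 1.11 to 418 ± 18.5 CPM (1.19 ± 0.04, adjusted p 3.01e-25). In (GT)6 SWCNT, Rgs1 rose from 56.9 ± 3.69 to 122 ± 12.9 CPM (log2 1.10 ± 0.08, adjusted p 2.52e-14), and Rgs14 fell from 29.5 ± 1.29 to 20.3 ± 0.734 CPM. Both were also called with LPS, Rgs1 higher (log2 1.04 ± 0.08, adjusted p 4.61e-14) and Rgs14 lower (−0.59 ± 0.07, adjusted p 2.67e-08). Neither was called in (GT)6 SWCNT against LPS (adjusted p 0.675 for Rgs1 and 0.726 for Rgs14). With COOH SWCNT, Rgs1 was called higher (log2 0.42 ± 0.08, adjusted p 8.5e-05). Rgs1 fell in DiBASC2 to 41.1 ± 2.99 CPM, in Di-2-ANEPEQ to 36.9 ± 3.08 CPM and in AAV to 42.6 ± 0.812 CPM. DiBASC2 called 1 gene of the list higher and 1 lower, Di-2-ANEPEQ 2 and 2, and AAV 2 and 1. Of all genes, 5.47%, 3.08% and 5% were called there. Fura-2 called none with edgeR, where 0.252% of all genes were called, and DESeq2 called 1. Rgs1 in Fura-2 had log2 −0.33 ± 0.08 and an adjusted p of 0.0595 in edgeR. At an unadjusted p under 0.05 in Fura-2 there were 6 of the list, beside 1411 of all 13116 tested genes.

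Across the 24 libraries, the log2 CPM of Ccrl2, C3ar1 and C5ar1 ran closely together and that of Cxcr4 correlated negatively with them. These correlations are a description over libraries that share their group, and carry no p. Ccrl2 and C3ar1 had r = 0.960, C5ar1 and C3ar1 0.893, and Ccrl2 and C5ar1 0.889, whereas Cxcr4 had −0.845 with Ccrl2, −0.834 with C3ar1 and −0.613 with C5ar1. Ccr1 had −0.113 with Ccrl2 and −0.0908 with C3ar1. The mean of Cxcr4 was 1.63 CPM in LPS and 3.87 to 5.17 CPM in the other groups. In COOH SWCNT and DiBASC2, C5ar1 and Ccrl2 were called but Cxcr4 was not. Among about 9276 protein-coding genes at 5 CPM or more, the closest profile to C5ar1 was that of Pdgfb (r = 0.994), which stood at 102 CPM in control, 372 in LPS, 436 in (GT)6 SWCNT and 69.2 in DiBASC2. Closest to C3ar1 were Herpud1 (0.992) and Malt1 (0.987), and closest to Ccrl2 were Mcl1 (0.989) and Nlrp3 (0.987). Closest to Cxcr4 were Cd300lb (0.946) and Txnip (0.941), which stood at 50.6 and 225 CPM in control and at 10.9 and 97.5 CPM in LPS. The nearest profiles were looser for Ccr1 (Pld3 0.773, Itgax 0.762) and Cx3cr1 (Yif1b 0.692, Abhd10 0.653), and Lcp2 was second for C5ar1 at 0.990.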

How the data were processed

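Poly-A RNA of SIM-A9 cells was sequenced in 24 libraries, 3 in each of 8 groups, and groups were taken from the sample titles and treatment labels. The values used are the raw counts per gene deposited by the authors, which are whole numbers whose totals differ between libraries. Alignment with STAR 2.5.4b to GRCm38.p6 is given in the submitters' processing notes, and the counting tool, strand setting and annotation are not given in the sources used here. Symbols came from GENCODE M21, where 54809 of 54838 identifiers matched without the version suffix. The libraries labelled DiBASC2 in their titles carry a different trailing number in each treatment label, and Di-2-ANEPEQ is spelled in several ways.

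The analysis used edgeR 4.0.16 in R 4.3.3. The filterByExpr defaults left 13116 genes, TMM factors scaled the libraries, and 1 quasi-likelihood model holding the 8 group means covered all 24 libraries (16 residual degrees of freedom, biological coefficient of variation 4.12%). All 11 contrasts were tested two-sided, with Benjamini-Hochberg adjustment over all 13116 genes in each, and a gene was called at an adjusted p under 0.05. The standard error is the absolute log2 fold change divided by the square root of F. Each library was counted as a replicate. Replicate pairs differed by more than sampling noise (chi-square per degree of freedom 2.52 to 20.5), which does not show that they came from separate cultures. The scripts were tested on simulated data. Alternatives were DESeq2 1.42.0 size factors and test, upper-quartile factors, other low-count filters, a replicate block, a fit of the 2 groups alone, and leaving out each library.

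The members and gene lists were chosen with earlier results of these data known. The 9 receptors are named whatever their values. From each other list, at most 2 called genes per comparison with the largest change, a mean of at least 1 CPM and no overlap between libraries are named. Genes named beyond this (Ccr7, C3, Hc, Rarres2, Cxcl12, Ccl8 and Ccl11, and Ccl3 and Ccl7 in DiBASC2) were chosen after their values were seen. The same holds for the LPS comparisons of Ccl7, Cxcr3, Rgs1 and Rgs14, and for Rgs1 in Fura-2. The 2 most alike genes of a receptor are those with the highest Pearson r of log2 CPM (prior count 2) over 24 libraries. Promoter sequences are from RefSeq on GRCm38.p6, matched by symbol for 9 of 9 receptors.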

Additional observations from a re-analysis of the deposited data

How the results depend on the processing

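The calls of C5ar1, C3ar1 and Ccrl2 in LPS, both nanotube groups and, for C5ar1 and Ccrl2, DiBASC2, and of Cxcr4 in LPS, held in all 7 alternatives and with each library left out. Over called results, 175 values kept the call and 5 lost it in the alternatives, and 148 kept and 8 lost it with a library left out. All 5 were Cxcr4 in (GT)6 SWCNT, with adjusted p of 0.0571 (DESeq2 size factors), 0.0962 (no filter), 0.0574 (replicate block), 0.0700 (fit of only the 2 groups) and 0.0767 (DESeq2 test). Of the 8, 4 were Cxcr4 in (GT)6 SWCNT, without control replicates 1 and 3 and without (GT)6 SWCNT replicates 1 and 3, and 4 were Cx3cr1 in COOH SWCNT, without control replicates 1 and 2 and COOH SWCNT replicates 1 and 3. Cx3cr1 became called without control replicate 3 in LPS (adjusted p 0.0424) and (GT)6 SWCNT (0.0307). The cause was not tested.

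No shared effect of the replicate number was seen: same-numbered deviations correlated at −0.0027 on average over 84 pairs (range −0.104 to 0.0696), and 5 of 24 libraries correlated best with their own number. These values cannot show whether same-numbered libraries were handled together. With the replicate block, 3 receptors were called in (GT)6 SWCNT and it changed no other receptor call. All genes called were then 3683 in LPS, 2631 in (GT)6 SWCNT, 2548 in COOH SWCNT, 22 in Fura-2, 694 in DiBASC2, 396 in Di-2-ANEPEQ and 580 in AAV.

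In Fura-2, 33 genes were called, against 188 with no filter, 80 in a fit of only the 2 groups and 86 with the DESeq2 test, and in Di-2-ANEPEQ 404 against 814 in a fit of only the 2 groups. DiBASC2 against Di-2-ANEPEQ called 1 receptor, and 2 with DESeq2 size factors or test, where Ccrl2 had adjusted p of 0.0491 and 0.0353. With a library left out, all genes called ranged from 3104 to 3580 (LPS), 1980 to 2576 ((GT)6 SWCNT), 1786 to 2463 (COOH SWCNT), 0 to 106 (Fura-2), 333 to 574 (DiBASC2), 120 to 418 (Di-2-ANEPEQ), 157 to 769 (AAV), 2186 to 2706 ((GT)6 SWCNT against LPS), 4112 to 4786 (COOH SWCNT against LPS), 1923 to 2551 ((GT)6 SWCNT against COOH SWCNT) and 610 to 1284 (DiBASC2 against Di-2-ANEPEQ). Receptors called were 4 to 5 in LPS, 3 to 4 with each nanotube, and 1 to 2 in DiBASC2 against Di-2-ANEPEQ.

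Reversed log2 changes were all uncalled. Cxcr4 in DiBASC2 became 0.027 with upper-quartile factors, 0.0028 with a mean of at least 50 counts and 0.0057 in the fit of 2 groups, and Cx3cr1 in DiBASC2 against Di-2-ANEPEQ became 0.024 and 0.00021 with the first 2 of these. With a library left out, the ranges were −0.032 to 0.13 (Ccrl2, Fura-2), −0.055 to 0.012 (C3ar1, Fura-2), −0.10 to 0.072 (Cxcr4, DiBASC2), −0.039 to 0.14 (Cx3cr1, DiBASC2), −0.24 to 0.30 (Ccr1, Di-2-ANEPEQ), −0.037 to 0.15 (Cx3cr1, Di-2-ANEPEQ), −0.16 to 0.31 (Ccr1, AAV), −0.029 to 0.089 (Cx3cr1, (GT)6 SWCNT against LPS), −0.015 to 0.10 (Ccrl2, (GT)6 SWCNT against COOH SWCNT) and −0.044 to 0.016 (Cx3cr1, DiBASC2 against Di-2-ANEPEQ). With upper-quartile factors the share of called genes that were higher was 35.4% against 48.7% in LPS, 54.9% against 33.3% in DiBASC2, 26.3% against 36.7% in AAV, 57.5% against 44.6% in (GT)6 SWCNT against LPS, 62.5% against 47.9% in COOH SWCNT against LPS, 44.4% against 55.6% between the nanotubes and 63.4% against 38.8% in DiBASC2 against Di-2-ANEPEQ. With the DESeq2 test it was 48.1% in AAV and 29.1% against 15.2% in Fura-2. The lowest counts came without control replicate 1 in DiBASC2 (333) and Di-2-ANEPEQ (120), without control replicate 3 in AAV (157), without Di-2-ANEPEQ replicate 1 against DiBASC2 (610), and in Fura-2 without control replicates 1 or 3 or Fura-2 replicates 2 or 3 (0 each).

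Depth limits Ccr2, Fpr1 and Fpr2, under the low-count filter, and Ccr1, with 16 to 55 counts per library. Ccr1 fell under the filter of a mean of at least 50 counts, so that setting gave it no value. DESeq2 left part of the genes without an adjusted p in some comparisons, and such values are not counted here.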
